A study of Mus musculus with 6 samples.

Results

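The peptidylarginine deiminases are a family of 5 mouse genes, *Padi1*, *Padi2*, *Padi3*, *Padi4* and *Padi6*, which stand side by side on chromosome 4. They were taken by name from the 22894 genes that had a row in every library, and 2 of them, *Padi2* and *Padi4*, had the mean level of at least 1 FPKM (fragments for each kilobase of a transcript and each 1000000 fragments mapped) that was asked of the 9928 genes tested. The RNA came from T follicular helper (Tfh) cells, the CD4+ T cells that help B cells in germinal centers. They were sorted as B220-CD3+CD4+CXCR5+PD-1+GFP- spleen cells on day 7 after intraperitoneal immunization with 100 µg of NP-CGG in complete Freund's adjuvant. The gate left out cells with B220, a marker of B cells. There were 3 WT and 3 Bob1KO libraries. The WT mice carried floxed Bob1 alleles (Bob1fl/fl) and no Cre (CD4+/+), and the Bob1KO mice carried the same alleles with Cre under the Cd4 promoter (CD4Cre/+Bob1fl/fl), so that *Pou2af1*, the gene of the transcriptional coactivator Bob1, was floxed in both groups and deleted in all T cells that pass through a CD4-expressing stage in 1 of them. Both groups also carried the FoxP3GFP/DTR allele, by which FoxP3+ regulatory cells show GFP and were gated out, and each library was a pool of several immunized mice, littermates of 6 to 12 weeks matched for age and sex per the study's methods. The family was selected on the WT and Bob1KO levels of *Padi4*, whose difference was known, so the values of its members are a description and carry no test.

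Peptidylarginine deiminases are calcium-dependent enzymes that turn arginine residues of proteins into citrulline, which takes away a positive charge. PAD4, the product of *Padi4*, enters the nucleus and citrullinates histones, and it is best known for the release of chromatin by neutrophils and as an antigen and enzyme in rheumatoid arthritis. PAD2 is found in many tissues, PAD1 and PAD3 act mainly in the epidermis and hair follicle, and PAD6 is an oocyte protein.

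The 5 genes are alike in structure, with 16 exons each and 662 codons in *Padi1*, 673 in *Padi2*, 664 in *Padi3*, 666 in *Padi4* and 682 in *Padi6* (GENCODE M21, GRCm38). The catalytic cysteine lies near the end of the protein, and the 45 coding bases around its codon are shown because they set *Padi6* apart from the enzymes that act on arginine. Capitals mark the codon that has 18 codons after it, and the stretch lies in exon 16 of each gene, at chr4:140814657-140814701 in *Padi1*, chr4:140949844-140949888 in *Padi2*, chr4:140786437-140786481 in *Padi3*, chr4:140746160-140746204 in *Padi4* and chr4:140727612-140727656 in *Padi6*.
Padi1: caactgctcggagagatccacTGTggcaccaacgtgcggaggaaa
Padi2: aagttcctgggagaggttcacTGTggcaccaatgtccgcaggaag
Padi3: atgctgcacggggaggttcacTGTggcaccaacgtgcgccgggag
Padi4: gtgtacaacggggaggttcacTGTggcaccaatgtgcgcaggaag
Padi6: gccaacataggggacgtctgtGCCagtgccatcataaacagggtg
The capitals encode cysteine in *Padi1*, *Padi2*, *Padi3* and *Padi4* and do not in *Padi6*. Over the whole coding sequence, identity between pairs of members lay between 58.0% (*Padi2* and *Padi6*) and 67.2% (*Padi3* and *Padi4*) of aligned bases. The longest run of bases that *Padi4* shared with another member was 35, with *Padi1*, and the longest in the family was 63, between *Padi1* and *Padi3*.

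The targeted gene followed the labels. *Pou2af1* had 46.1, 32.5 and 34.4 FPKM in the WT libraries and 1.16, 0.237 and 0.317 FPKM in the Bob1KO libraries, and with a log2 difference of -4.65 (SE 0.256, limma adjusted p = 0.00334) it was the only gene called lower in Bob1KO. *Pcsk1*, a prohormone protease, was the only gene called higher (log2 difference 2.40, SE 0.195, limma adjusted p = 0.0236), and with the replicate number as a block it was not called (limma adjusted p = 0.201). The call of *Pou2af1* held with any 1 library left out and was lost without both replicate 2 libraries (limma adjusted p = 0.0711, log2 difference -4.60), and that of *Pcsk1* was lost in 4 of the 6 cases with 1 library left out. Each direction therefore had 1 gene, 0.0101% of the 9928 tested, at the adjusted p of 0.05, while 213 genes (2.15%) were lower and 315 genes (3.17%) higher at an unadjusted p of 0.05. Depth, as read from the steps between low FPKM values, was about 18700000 to 26600000 fragments per library. Transcripts of the Y-linked gene *Ddx3y* were found only in the replicate 2 libraries, at 29.9 FPKM in WT and 27.9 FPKM in Bob1KO. RNA of male cells was thus seen in replicate 2 of each group alone. The part of sex in the spread between replicates was not tested.

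*Padi4* was by far the most abundant member, with a large spread in each group. It was lower in Bob1KO than in the same-numbered WT library in 3 of 3 cases, as were 13.5% of the genes tested. The labels do not say that the numbers pair the libraries. *Padi4* had 140.4, 66.7 and 21.3 FPKM in WT libraries 1, 2 and 3. In Bob1KO libraries 1, 2 and 3 it had 32.2, 32.7 and 11.6 FPKM. WT 1 and WT 2 stood above all Bob1KO libraries, WT 3 lay below Bob1KO 1 and Bob1KO 2, and the groups therefore overlapped. The means were 76.1 ± 60.1 FPKM in WT and 25.5 ± 12.05 FPKM in Bob1KO (SD, n = 3 libraries each), a ratio of 2.98 of WT to Bob1KO. On the scale of log2(FPKM + 1) the difference was -1.31 with an SE of 0.686, and without WT 1 it was -0.69, against -2.02 without WT 3 and -0.84 without Bob1KO 3. The highest WT library exceeded the lowest 6.58-fold, and the highest Bob1KO library the lowest 2.82-fold, so in FPKM the range within WT was wider than the difference between the means. Both the overlap and this range depended on the scale. The fragments implied by the width of the Cufflinks interval were also taken per 1000000 fragments of the library. They were 107, 59.2 and 54.8 in WT and 47.4, 32.2 and 29.9 in Bob1KO. On this scale all WT libraries stood above all Bob1KO libraries, and WT 1 was at 1.96 times WT 3. The scale was worked out for *Padi4* and *Padi2* only, so no share of all genes with this pattern can be given. The implied fragments are no counts, because an interval can also widen where a row sums several assembled isoforms. In such bulk samples fewer cells that express the gene and less RNA per cell cannot be told apart.

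Among the genes of the same libraries, *Padi4* ranged from a high to a middle level. It stood above 94.1%, 86.2% and 58.9% of the genes tested in WT 1, WT 2 and WT 3, and above 70.4%, 71.9% and 42.9% in Bob1KO 1, Bob1KO 2 and Bob1KO 3. A log2 difference at or below that of *Padi4* was found for 39 genes (0.393% of those tested), and 6 of the 1917 genes with at least its mean level reached it. A spread within groups as large as that of *Padi4* (SD 1.11 on the log2 scale) was found for 199 genes, 2.0% of those tested, against a median SD of 0.21 over all genes.

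**Figure D1:**
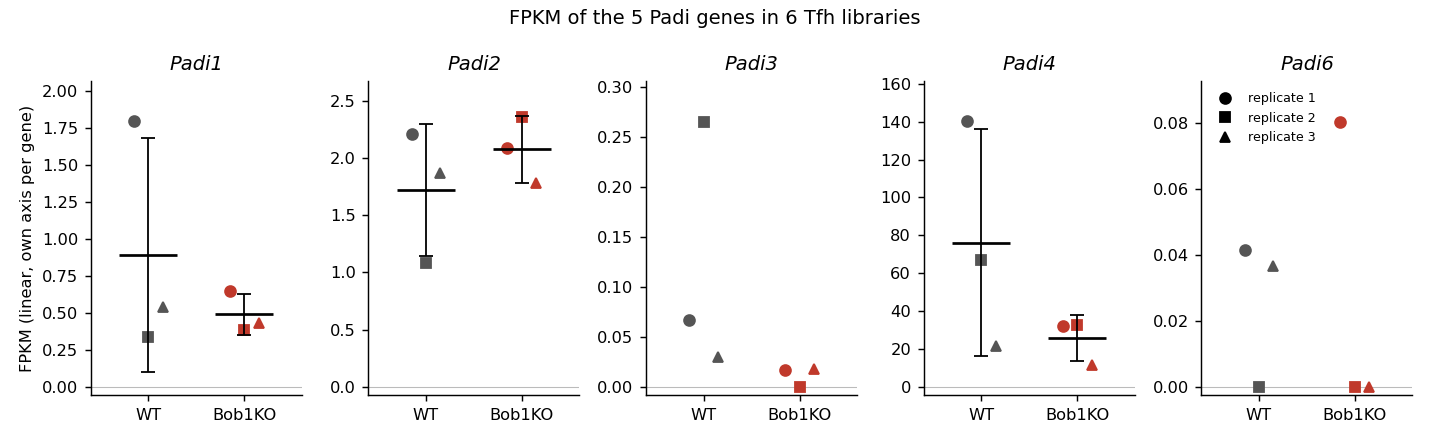
FPKM (vertical, linear, with an axis of its own for each gene) of the 5 Padi genes in 3 WT libraries (grey) and 3 Bob1KO libraries (red), with replicate numbers as shapes; lines and bars are the mean and SD of 3 libraries, left out for Padi3 and Padi6, which are listed at 0 in some libraries. Padi4 reaches 140.4 FPKM in WT 1 and 11.6 FPKM in Bob1KO 3, Padi2 stays between 1.09 and 2.37 FPKM, and the other members lie below 2 FPKM.

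*Padi2*, the member with the widest range of tissues, was low and lay at like levels in both groups. It had 2.21, 1.09 and 1.87 FPKM in the WT libraries and 2.09, 2.37 and 1.78 FPKM in the Bob1KO libraries. WT 2 was the lowest and Bob1KO 2 the highest, and the groups overlapped. The means were 1.72 ± 0.577 and 2.08 ± 0.291 FPKM (SD, n = 3), and the log2 difference of 0.20 was smaller than its SE of 0.232. In each library *Padi2* stood above only 4.05% to 12.3% of the genes tested.

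*Padi1*, an epidermal member, had 1.79, 0.337 and 0.540 FPKM in WT and 0.648, 0.384 and 0.430 FPKM in Bob1KO. WT 1 alone exceeded 1 FPKM, and the other 5 libraries were interleaved. The log2 difference of -0.27 (SE 0.283) became 0.05 without WT 1. A noncoding gene, *Gm13032*, overlaps the end of *Padi1* on the opposite strand and had 0.339 to 1.66 FPKM. The library kit does not mark strand, so reads of *Padi1* and *Gm13032* cannot be told apart where they overlap.

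*Padi3*, the hair follicle member, was near the limit of detection. It had 0.0670, 0.265 and 0.0295 FPKM in WT, and 0.0161, 0 and 0.0177 FPKM in Bob1KO. All WT libraries were above all Bob1KO libraries, a pattern found with Bob1KO lower in 4.81% of the genes tested. *Padi3* is too low to be among the genes tested, so that share does not describe genes of its level. The intervals that Cufflinks gave correspond to only 4, 12 and 2 fragments in WT and 1, 0 and 1 in Bob1KO, so a difference was not detectable at this depth.

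*Padi6*, the oocyte member, was listed at 0 in 3 of the 6 libraries and had at most 0.0802 FPKM, in Bob1KO 1, which corresponds to 4 fragments. *Padi4* thus made up 97.2%, 97.5% and 89.6% of the summed FPKM of the 5 genes in WT 1, WT 2 and WT 3, and 91.9%, 92.3% and 83.9% in Bob1KO 1, Bob1KO 2 and Bob1KO 3. Its ratio to *Padi2*, the next member, ran from 63.5 in WT 1 to 6.52 in Bob1KO 3. The order *Padi4*, *Padi2*, *Padi1* held in each of the 6 libraries, while *Padi3* and *Padi6* lay below them and were too close to 0 to be ordered.

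Libraries that share a replicate number moved weakly together in their deviations from the group means (correlations 0.111 to 0.129). The labels do not say that the numbers pair the libraries, but the same-numbered ones were also set side by side. *Padi4* in Bob1KO was 0.230 times its level in WT for number 1, 0.491 times for number 2 and 0.544 times for number 3. The log2 differences were -2.09, -1.01 and -0.82. A lower level in Bob1KO in all 3 numbers was found for 1336 genes, 13.5% of those tested. With the replicate number as a block the log2 difference of -1.31 cannot change, because each number holds a WT and a Bob1KO library. Its SE was 0.266 in place of 0.686, and the SD that remained was 0.48. Number 3 had the lowest *Padi4* of each group. *Padi2* had ratios of 0.945, 2.18 and 0.953, near 1 for numbers 1 and 3 and higher in Bob1KO for number 2, and its SE was 0.247 with the block. *Padi1* had ratios of 0.361, 1.14 and 0.797.

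**Figure D2:**
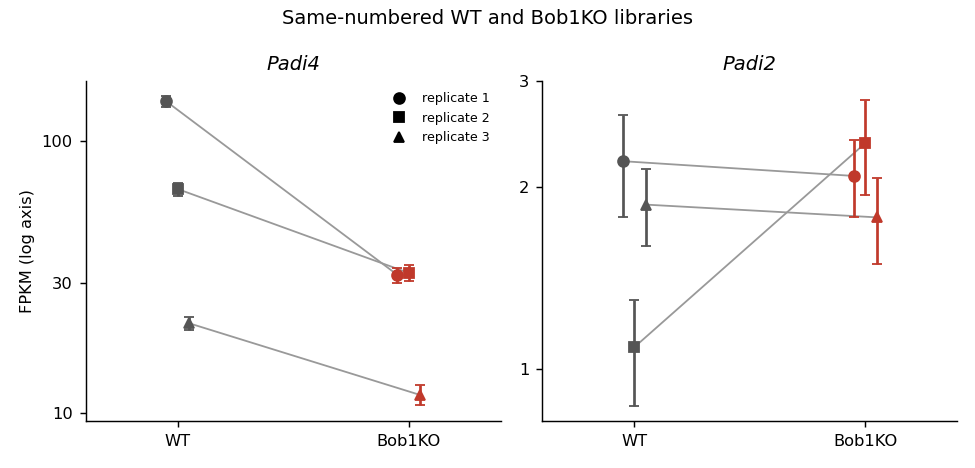
FPKM (vertical, log axis) of Padi4 (left) and Padi2 (right) in WT and Bob1KO libraries, with a line between libraries of the same replicate number and bars for the interval that Cufflinks gave for each library. The Padi4 lines all fall, to 0.230, 0.491 and 0.544 times the WT level, whereas the Padi2 line of number 2 rises.

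The intervals of single libraries were narrow for *Padi4*. Cufflinks put it within 4.28% of its value in WT 1 and within 8.46% in Bob1KO 3, with the other libraries between. The intervals of WT 1 (134 to 146 FPKM), WT 2 (62.9 to 70.5 FPKM) and WT 3 (20.1 to 22.5 FPKM) did not meet. Those of Bob1KO 1 (30.2 to 34.3 FPKM) and Bob1KO 2 (30.5 to 35.0 FPKM) overlapped, and that of Bob1KO 3 (10.6 to 12.6 FPKM) lay below both. The spread between the WT libraries was thus larger than the error that Cufflinks gives, which covers the assignment of fragments and not the spread between pools of mice. The FPKM per fragment that these intervals imply was not the same in all libraries, with 0.0641 in WT 1 and 0.0539 in WT 2 against 0.0170 in WT 3, and 0.0327, 0.0382 and 0.0208 in Bob1KO 1, Bob1KO 2 and Bob1KO 3, and its part in the levels of *Padi4* was not tested. For *Padi2* the interval reached 14.6% to 19.9% of the value to either side.

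On the chromosome *Padi4* lies between *Padi6* and *Padi3*, from 140745508 to 140774239 on the minus strand (RefSeq, GRCm38.p6). *Padi6* reaches from 140727355 to 140742643, *Padi3* from 140785369 to 140810648 and *Padi1* from 140812981 to 140845778, all on the minus strand, and *Padi2* from 140906336 to 140952586 on the plus strand. Of the 43 other genes annotated within 500000 bases of this cluster, 24 had a row in each library and 9 were tested, and 0 passed either the adjusted or an unadjusted p of 0.05 (limma). Their median log2 difference was 0.02, against 0.00 over all genes, with 5 above and 4 below 0. *Rcc2*, a chromosome condensation regulator 4135 bases beyond *Padi6*, had 55.6, 51.1 and 66.9 FPKM in WT and 54.0, 53.7 and 67.7 FPKM in Bob1KO (log2 difference 0.02, SE 0.148, limma adjusted p = 0.997). *Sdhb*, a subunit of succinate dehydrogenase 8685 bases beyond *Padi2*, had 155.5, 189.7 and 189.4 FPKM in WT and 160.8, 126.4 and 186.7 FPKM in Bob1KO (log2 difference -0.19, SE 0.168, limma adjusted p = 0.948). The neighbours with the smallest p were *Crocc*, which encodes the rootlet protein of cilia (0.36, SE 0.228, limma adjusted p = 0.948), and *Zbtb17*, which encodes the Myc partner Miz-1 (0.15, SE 0.115, limma adjusted p = 0.948). No tested neighbour within this distance came near the -1.31 of *Padi4*, although the SE of *Padi4* is itself larger than that of each of them.

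**Figure D3:**
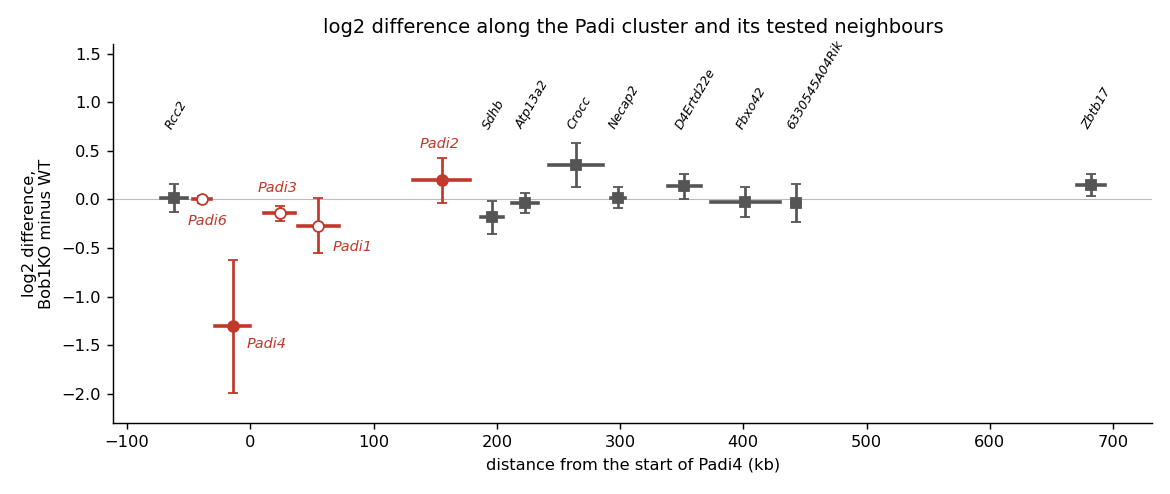
log2 difference, Bob1KO minus WT (vertical), of the Padi genes (red; open where the mean FPKM is below 1) and of the tested neighbours (grey squares) by distance from the start of Padi4 in kb (horizontal); horizontal lines show the extent of each gene and bars the standard error. Padi4 lies at -1.31 (SE 0.686) between members and neighbours that all lie between -0.27 and 0.36.

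The promoters of *Padi4* and *Padi3* are shown because the former belongs to the gene that differed most and the latter holds the only match to the octamer ATGCAAAT, the sequence at which Bob1 joins the POU factors Oct-1 and Oct-2. The 250 bases before the transcription start of the RefSeq promoter table (GRCm38.p6, minus strand) were searched on both strands. This table places the start of *Padi4* inside the RefSeq span given above, so that the last 36 bases of its window lie within that span, and likewise 24 bases for *Padi2*. The letters searched were those of the octamer, the TATA box TATAAA, the AP-1 site TGANTCA and the GC box GGGCGG. Capitals mark the matches, which are letters in a window and say nothing of binding.
Padi4, chr4:140774204-140774453: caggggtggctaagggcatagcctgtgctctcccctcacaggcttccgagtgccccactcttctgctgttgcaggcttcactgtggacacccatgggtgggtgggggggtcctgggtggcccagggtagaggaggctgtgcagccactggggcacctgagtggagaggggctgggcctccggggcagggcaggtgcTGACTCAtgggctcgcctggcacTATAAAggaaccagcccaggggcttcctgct
Padi3, chr4:140810649-140810898: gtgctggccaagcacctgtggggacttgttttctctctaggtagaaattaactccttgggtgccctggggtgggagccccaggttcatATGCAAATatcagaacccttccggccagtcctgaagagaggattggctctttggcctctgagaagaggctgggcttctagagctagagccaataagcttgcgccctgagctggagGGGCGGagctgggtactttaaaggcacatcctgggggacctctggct
The *Padi4* window held TATAAA 31 to 26 bases and TGACTCA 54 to 48 bases before the start, and no match to the octamer. The *Padi3* window held the octamer 162 to 155 bases and GGGCGG 47 to 42 bases before the start. Of 27025 promoters of this length, 1.61% held the octamer, 13% TATAAA, 6.87% TGANTCA and 32.9% GGGCGG. Of the 5 Padi promoters, 1 held the octamer, 1 TATAAA, 1 TGANTCA and 3 (*Padi2*, *Padi3* and *Padi6*) GGGCGG. The *Padi4* window had 66.0% G or C and 3 CG pairs, and the *Padi2* window 61.6% and 17 CG pairs, against medians of 52.0% and 6 over all promoters.

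*Padi4* is also a gene of neutrophils, and neutrophil transcripts were present in these sorted cells. All 15 matched neutrophil markers were above 0 in at least 1 library, and their summed FPKM was 772, 592 and 1126 in WT and 5226, 92.7 and 1665 in Bob1KO. *S100a8*, which encodes a calcium-binding protein abundant in neutrophils, had 294, 254 and 447 FPKM in WT and 2027, 35.5 and 567 FPKM in Bob1KO. Its partner *S100a9* had 183, 155 and 276 FPKM in WT and 1434, 24.1 and 411 FPKM in Bob1KO. *Ngp*, a granule protein of maturing neutrophils, had 84.2, 64.5 and 185 FPKM in WT and 591, 10.1 and 304 FPKM in Bob1KO. Bob1KO 1 and Bob1KO 2 stood at the opposite ends of these sums, 5226 against 92.7, while their *Padi4* was 32.2 and 32.7 FPKM. WT 1, with the highest *Padi4*, had the third lowest neutrophil sum.

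None of the 15 neutrophil markers passed the adjusted or an unadjusted p of 0.05 (limma). Their log2 differences were all above 0, with a median of 0.35, which was -0.73 without Bob1KO 1 and 1.45 without Bob1KO 2, against a difference below 0 for *Padi4*. The receptors *Csf3r* (0.50, SE 0.592, limma adjusted p = 0.958) and *Cxcr2* (0.39, SE 0.440, limma adjusted p = 0.958) had the smallest p. Over the 6 libraries, which include both groups, Pearson's r between *Padi4* and the neutrophil sum on log2 scales was -0.21, and it was -0.24 for monocyte and macrophage markers and -0.10 for B cell markers.

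**Figure D4:**
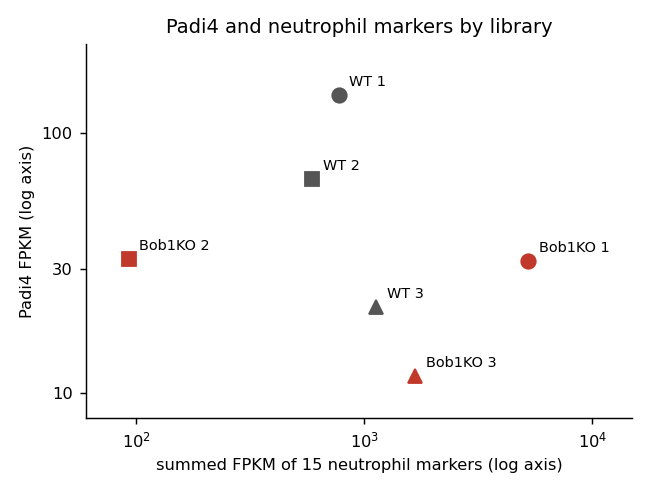
Padi4 FPKM (vertical, log axis) against the summed FPKM of 15 neutrophil markers (horizontal, log axis), 1 point per library with WT in grey and Bob1KO in red. Bob1KO 1 and Bob1KO 2 have 32.2 and 32.7 FPKM of Padi4 at sums of 5226 and 92.7, and WT 1 has 140.4 FPKM at a sum of 772.

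The matched markers of monocytes and macrophages had lower sums, of 31.3, 26.1 and 33.0 FPKM in WT and 102.4, 15.04 and 46.4 FPKM in Bob1KO. Of the 13 markers *Lyz2* was not matched, so its level is not known here and is not in these sums. Of 12 matched, 10 were tested and 0 passed either p, with a median log2 difference of 0.38, which was -0.15 without Bob1KO 1 and 0.82 without Bob1KO 2. With the replicate block 2 of them, *C1qb* and *C1qc*, were higher at an unadjusted p of 0.05, and 0 at the adjusted p. The most abundant of those matched was *Ly6c2*, a surface antigen that some T cells carry too. It had 13.5, 11.2 and 15.2 FPKM in WT and 58.0, 6.81 and 18.1 FPKM in Bob1KO. *Cd68*, a lysosomal protein, had 4.09 to 11.1 FPKM. The complement genes *C1qb* (1.08, SE 0.487, limma adjusted p = 0.927) and *C1qc* (0.76, SE 0.447, limma adjusted p = 0.948) had the smallest p, and both were highest in Bob1KO 1 and Bob1KO 3, as were the sums.

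Of the 12 B cell markers, *Ighm* and *Ighd* were not matched, so their levels are not known here. The matched ones were low apart from *Cd22*. Of the 10 matched, 7 lay below 1 FPKM in all libraries, among them *Ms4a1* and *Pax5*, and 3 were tested, with 0 past either p and a median log2 difference of 0.04, which was -0.36 without Bob1KO 1 and 0.32 without WT 1. *Cd22*, an inhibitory receptor of B cells, had 32.8, 17.8 and 18.1 FPKM in WT and 44.9, 25.0 and 40.2 FPKM in Bob1KO (0.67, SE 0.298, limma adjusted p = 0.918, or 0.619 with the replicate block, where its unadjusted p fell below 0.05). *Cd79b* (-0.25, SE 0.309, limma adjusted p = 0.958) and *Cd79a* had 0.438 to 4.36 FPKM. The part of other cells in the *Padi4* values was not tested beyond these levels.

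The markers of Tfh cells fitted the sort. All 15 were matched and tested, their summed FPKM lay between 4422 and 5856 over the libraries, and their median log2 difference was 0.03, with 8 above and 7 below 0. None passed the adjusted p, and *Cd4* was higher in Bob1KO at an unadjusted p of 0.0265 (0.36, SE 0.128, limma adjusted p = 0.909). *Cd200*, a surface glycoprotein of Tfh cells, had a difference of 0.30 (SE 0.129, limma adjusted p = 0.918). The sums of these markers were highest in WT 1 and Bob1KO 1, the former of which also had the highest *Padi4*.

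The genes around citrullination showed few differences. Of 15 genes whose products are known substrates of peptidylarginine deiminases, 13 were tested, 0 passed the adjusted p and 1 was lower at an unadjusted p of 0.05. This was *E2f1*, a cell cycle transcription factor, with 7.24, 8.85 and 6.24 FPKM in WT and 5.68, 4.84 and 4.30 FPKM in Bob1KO. Over all genes tested 2.15% were lower at that p. The groups of *E2f1* did not overlap, as in the 4.81% of genes with Bob1KO lower, and its log2 difference was -0.50 (SE 0.177, limma adjusted p = 0.909). *Gata3*, a T cell transcription factor, was at 62.7 to 64.1 FPKM in WT and at 56.9 to 89.3 FPKM in Bob1KO (0.18, SE 0.166, limma adjusted p = 0.948). The list had a median of 0.09, with 9 above and 4 below 0.

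PAD4 is known to bind p53 and to act as a corepressor at p53 target genes. Of 13 genes for p53, its partners and its targets, 12 were tested, 0 passed the adjusted p and 2 were higher at an unadjusted p of 0.05, against 3.17% of all genes tested. *Bbc3*, which encodes the proapoptotic protein PUMA, had 15.4, 13.8 and 13.3 FPKM in WT and 22.0, 22.2 and 18.7 FPKM in Bob1KO. All Bob1KO libraries were above all WT libraries, as in 5.87% of the genes tested, and the log2 difference was 0.53 (SE 0.126, limma adjusted p = 0.534). *Phlda3*, a p53-induced inhibitor of Akt, had 4.92, 3.01 and 3.14 FPKM in WT and 7.44, 5.94 and 6.22 FPKM in Bob1KO, again without overlap (0.70, SE 0.203, limma adjusted p = 0.801). The other 10 had an unadjusted p above 0.05, and the list split evenly, with 6 above and 6 below 0 and a median of 0.01. A link of these levels to *Padi4* was not tested.

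Arginine methyltransferases act on the same residues as peptidylarginine deiminases. Of 11 such enzymes and their cofactors 8 were tested, 0 passed either p, and the median was -0.12, with 2 above and 6 below 0. Without WT 3 that median was 0.07. *Prmt5*, which makes symmetric dimethylarginine, had 24.5, 29.97 and 28.9 FPKM in WT and 22.7, 23.9 and 22.9 FPKM in Bob1KO (-0.25, SE 0.118, limma adjusted p = 0.935). *Prmt3*, which acts on a ribosomal protein, had 37.1 to 53.1 FPKM in WT and 44.4 to 64.4 FPKM in Bob1KO (0.31, SE 0.184, limma adjusted p = 0.948, or 0.733 with the replicate block, where its unadjusted p fell below 0.05). Among 14 genes of free arginine and citrulline, 6 were tested and 0 passed either p, with a median of 0.04, or -0.14 without Bob1KO 2. *Ass1*, which joins citrulline to aspartate, had 31.1, 39.5 and 38.5 FPKM in WT and 32.7, 22.8 and 28.1 FPKM in Bob1KO (-0.38, SE 0.165, limma adjusted p = 0.918). *Slc7a1*, a transporter of arginine, had 2.37 to 6.36 FPKM in WT and 3.37 to 6.96 FPKM in Bob1KO (0.43, SE 0.353, limma adjusted p = 0.948).

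Calcium activates the enzymes, and all 16 genes of calcium entry and stores were tested. None passed the adjusted p, and 1 was lower at an unadjusted p of 0.05, which 2.15% of all genes were, namely *Stim2*, a calcium sensor of the endoplasmic reticulum. It had 29.1, 23.5 and 25.4 FPKM in WT and 18.7, 20.98 and 18.5 FPKM in Bob1KO, without overlap, as in 4.81% of all genes (-0.40, SE 0.125, limma adjusted p = 0.855). *Atp2a2*, the SERCA2 calcium pump, had 32.9 to 37.1 FPKM in WT and 37.2 to 41.6 FPKM in Bob1KO (0.17, SE 0.106, limma adjusted p = 0.948). Of the 16, 11 lay above and 5 below 0, around a median of 0.14. The 7 genes of the NADPH oxidase, whose oxidants act with PAD4 in the release of neutrophil chromatin, had a median of -0.07 and 0 past either p. Its membrane subunit gene *Cyba* had a log2 difference of -0.18 (SE 0.137, limma adjusted p = 0.948).

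**Figure D5:**
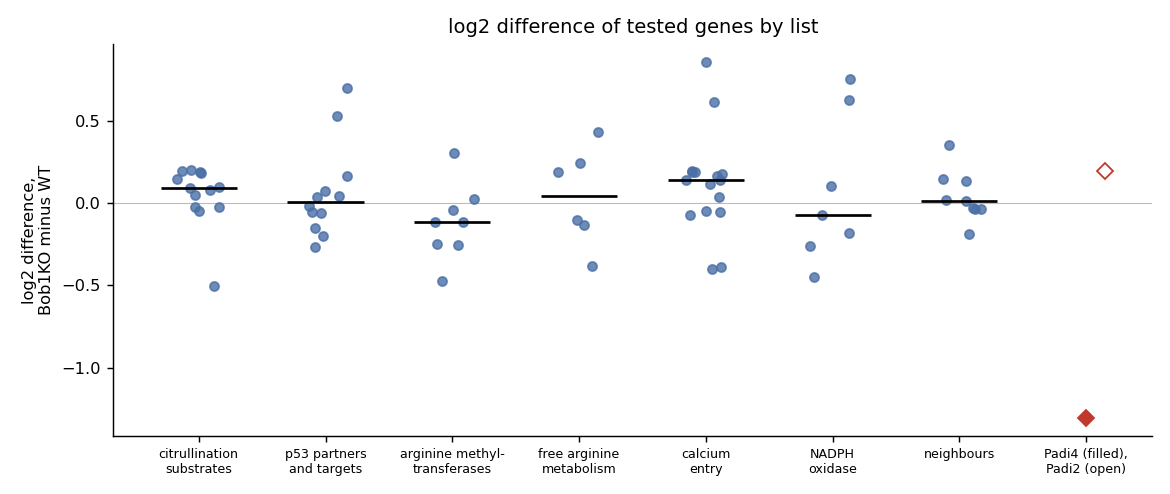
log2 difference, Bob1KO minus WT (vertical), of each tested gene in 7 lists (blue points, spread sideways only to be seen; black lines are medians), with Padi4 and Padi2 in red. List medians lie between -0.12 and 0.14, and Padi4 lies at -1.31.

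The genes whose levels ran most like *Padi4* over the 6 libraries were *Casc4* (Pearson's r 0.985 on log2(FPKM + 1)), the alpha-tubulin gene *Tuba3a* (0.975), *Hpgds* (0.973), *Ccl3* (0.962) and *Psen2* (0.957). These 6 points include both groups and pairs of libraries with the same number, and r was at least 0.95 for 6 genes of those tested and -0.95 or below for 9. *Hpgds*, a prostaglandin D synthase, had 3.46, 2.64 and 0.581 FPKM in WT and 1.03, 0.974 and 0.425 FPKM in Bob1KO. *Ccl3*, a chemokine, had 10.5, 7.44 and 2.26 FPKM in WT and 3.17, 3.07 and 2.11 FPKM in Bob1KO. *Psen2*, a subunit of gamma-secretase, had 92.3, 77.4 and 70.3 FPKM in WT and 66.9, 71.7 and 55.9 FPKM in Bob1KO, a much narrower range. The least alike were *Plin3* (-0.983), *Leprot* (-0.967), *Acaca* (-0.965), *Eno1* (-0.964) and *2310008H04Rik* (-0.957). *Eno1*, the glycolytic enzyme enolase, whose citrullinated form is known from rheumatoid arthritis, had 391.9, 448 and 612 FPKM in WT and 529, 498 and 606 FPKM in Bob1KO, and a near-identical copy in the genome makes its value uncertain. *Padi2* had an r of -0.05 with *Padi4*.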

How the data were processed

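RNA-seq of 6 Tfh libraries was analysed, 3 WT and 3 Bob1KO, grouped by genotype label. The study gives 3 experiments for each group. It does not say whether a WT and a Bob1KO library shared an experiment. Per the submitters' processing notes, the authors trimmed reads with cutadapt 1.2.1, aligned them to GRCm38 (mm10) with TopHat2 2.0.13 and made the deposited FPKM, with intervals, with Cufflinks 2.2.1 on transcripts assembled in each library alone. The version of the annotation was not given in the sources used here. A second deposited table holds group FPKM from pooled libraries, used as a comparison only, and the authors' own fold changes and p-values, which were not used.

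Rows were matched to RefSeq gene spans (at least 0.5 of the joint length, then rows covering at least 0.95 of a gene) and summed. Matched genes held 86.05% to 87.17% of the FPKM of a library. Genes with a mean of at least 1 FPKM were tested, two-sided, with limma 3.58.1 (R 4.3.3) on log2(FPKM + 1), which understates changes of low genes, with a variance trend, no term but the group, and p-values were adjusted by Benjamini-Hochberg at 0.05. Python 3.11.15, pandas 2.3.3 and Biopython 1.88 made the tables. The fragments behind an interval were read from its width, taken as 2 standard errors to either side. An FPKM rests on counting error and on the assembly of each library, and counts were not used here.

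The 5 members and the gene lists were chosen with earlier results of these data known. Named are all members, *Pou2af1*, the called genes, the nearest tested neighbours, in each list the genes past the adjusted p or else the 2 with the smallest p, up to 3 abundant genes of each other cell type, and the 5 genes most and least like *Padi4*. Some genes that this rule would name are not reported here. *Gm13032* and *Ddx3y* were named after their values were seen. Same-numbered libraries deviated weakly together from the group means (correlations 0.119, 0.129 and 0.111, against -0.0372 to -0.0878 for other pairs). The deviations within a group sum to 0 for each gene, so the values of the other pairs are not independent of these. The labels do not say that the numbers pair the libraries, and the block takes them as pairs. Alternatives were other pseudocounts, filters, scalings, overlaps, a replicate block and each library left out.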

Additional observations from a re-analysis of the deposited data

How the results depend on the processing

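*Padi4* was lower in Bob1KO under every alternative run. Its log2 difference lay between -2.02 (without WT replicate 3) and -0.69 (without WT replicate 1) when 1 library was left out. It was -1.46 without both replicate 2 libraries (chosen after seeing the data) and -1.34 from the authors' group FPKM. The replicate block cannot move it from -1.31, because each number holds a WT and a Bob1KO library, and changes only its SE. Genes called lower in Bob1KO numbered 1 in the analysis as reported, 2 with no filter on low values, 3 without both replicate 2 libraries (none of them *Pou2af1*) and 1 to 5 with 1 library left out. Genes called higher numbered 1 as reported, 0 with a pseudocount of 0.1, 0 with the replicate block, 0 without both replicate 2 libraries and 0 to 3 with 1 library left out. The total was 2 as reported, 1 with a pseudocount of 0.1, 1 with the replicate block and 2 to 7 with 1 library left out, the highest being without WT replicate 1. *Pou2af1* was called in all of these but the analysis without both replicate 2 libraries. *Pcsk1* was not called with a pseudocount of 0.1, with no filter, with the block, without both replicate 2 libraries, or without WT replicate 2 or any 1 Bob1KO library. At an unadjusted p of 0.05 the replicate block gave 378 genes higher and 243 lower, in place of 315 and 213. Apart from *Pcsk1* the block changed no call at the adjusted p. For the other members 40 of the alternative values moved by less than the spread between replicates, and 1 moved further, *Padi3* at -0.84 with a pseudocount of 0.1. For the medians of lists 122 stayed within that spread and 10 did not, among them the arginine methyltransferases at 0.07 without WT replicate 3. The counts for members and for lists include the replicate block, which cannot change these differences. For the members they also include the overlap of at least 0.7, which gave the same values as the main analysis. No result was computed on counts, and *Padi3* and *Padi6* are limited by depth.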

Other observations

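The FPKM and the interval that Cufflinks gave for *Padi4* did not scale alike in all libraries. The fragments implied by the width of the interval were 2189, 1237 and 1259 in WT 1, WT 2 and WT 3, and 986, 857 and 558 in Bob1KO 1, Bob1KO 2 and Bob1KO 3. The FPKM per implied fragment was 3.03, 2.61, 1.57 and 2.35 times the value of 1 fragment spread over the whole annotated transcript at the depth of the library in WT 1, WT 2, Bob1KO 1 and Bob1KO 2, and 0.903 and 0.901 times in WT 3 and Bob1KO 3. For *Padi2* this ratio was 1.99 in WT 1, 2.37 in Bob1KO 2 and 1.07 to 1.11 in the other libraries. An interval can also widen where a row sums several assembled isoforms, so the implied fragments are no counts, and the cause of the unequal ratios was not tested.

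The authors' group FPKM, made on 1 common assembly, were 69.9 in WT and 27.0 in Bob1KO for *Padi4*, 2.46 and 3.14 for *Padi2*, and 0.926 and 0.487 for *Padi1*. For *Padi2* both exceed the means over libraries used here, 1.72 and 2.08 FPKM.

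Within the cluster 2 rows matched no gene. In WT 2 a row of 1176 bases between *Padi4* and *Padi3*, chr4:140776103-140777278, had 0.735 FPKM, and in WT 1 a row inside the span of *Padi1*, chr4:140817650-140819426, had 0.743 FPKM. No other library had such rows, although the *Gm13032* row of 4 libraries reached into the second place.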
